A study of Mus musculus with 6 samples.

Results

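A group of 10 antiviral effector genes that interferon induces in most cell types was followed in cultures labelled as enteric glial cells (EGCs). The members were Isg15, Uba7, Ube2l6, Herc6, Usp18, Mx1, Mx2, Rsad2, Isg20 and Bst2. They were taken from the count tables by gene symbol, and each symbol belonged to exactly 1 identifier, so that the group made up 10 of the 46603 gene identifiers in the tables. Bulk poly(A) RNA sequencing had been performed on glia cultured from neurospheres of the embryonic mouse gut, the in vitro model with which the study examined signals passing from EGCs to monocytes and macrophages. The starting material was the total intestine of E14.5 C57BL/6J embryos, so neither a reporter nor a sort selected the glia. Mesenchymal and macrophage markers were expressed as well, with larger summed levels than the glial markers, over lists of unlike length. Of the 6 libraries, 3 came from untreated control cultures and 3 from cultures given lipopolysaccharide (LPS, a component of the outer membrane of gram-negative bacteria) at 100 ng/ml over 12 h. The labels did not say whether replicates came from separate litters or cultures, so the p-values given here measure the spread between these libraries, which may be technical.

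Type I interferon reaches its receptor on the cell surface and activates transcription factors that bind interferon-stimulated response elements (ISREs) in front of target genes. Among these targets, Isg15 encodes a small ubiquitin-like protein that is attached to other proteins by an enzyme cascade of its own, formed by UBA7, UBE2L6 and, in the mouse, HERC6, whereas USP18 takes it off again and also blocks signalling at the interferon receptor. The other members act on viruses by different routes: the Mx proteins are dynamin-like GTPases, RSAD2 (viperin) makes a chain-terminating nucleotide, ISG20 is an exonuclease that degrades RNA and BST2 (tetherin) holds budding virions on the cell surface.

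All 10 effector transcripts were higher after LPS. Together they took up 84.8, 99.7 and 149 CPM (counts per 1000000, on library sizes corrected for composition) in control replicates 1, 2 and 3, and 1476, 1648 and 2739 CPM in LPS replicates 1, 2 and 3. Every LPS library lay above every control library for each of the 10 genes, a separation seen for 19.3% of the 15226 genes tested. The quasi-likelihood test of edgeR called all 10 higher at an adjusted p under 0.05, while 9.09% of all genes tested were called higher and 6.71% lower. The median log2 fold change of the 10 genes was 4.37 beside -0.02 over all genes tested, with values between 3.10 and 8.27. Mx1, with fewer than 10 counts in each control library, passed the filter on low counts only through its LPS libraries; a filter of 10 counts in every library removed it, and the median of the other 9 members was then 3.77. In bulk RNA, a change in the number of cells of a type and a change in RNA per cell cannot be told apart.

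**Figure D1:**
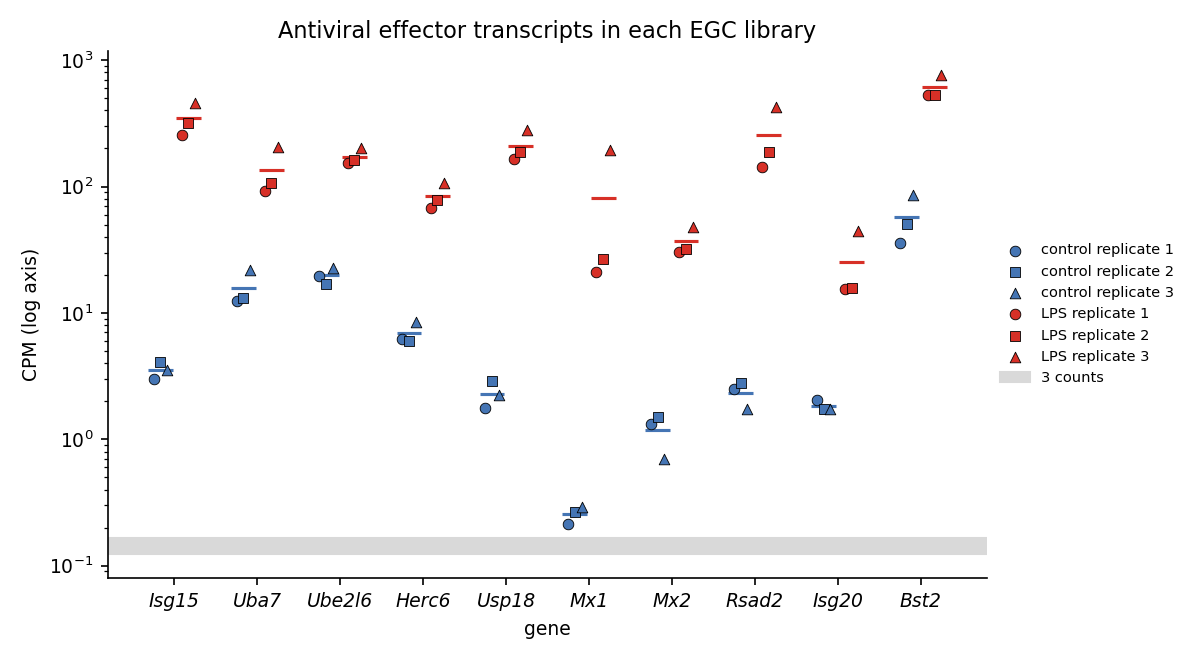
CPM of each effector gene (log axis) in the 3 control (blue) and 3 LPS (red) libraries, with horizontal lines at the group means and a grey band at the CPM that 3 counts stand for. No blue symbol reaches the red symbols of its gene, and LPS replicate 3 (red triangle) is the uppermost symbol of every gene.

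Since the 10 genes moved together, the sequence in front of their starts was examined for the letters of 2 elements that factors of the interferon pathway bind. The set of RefSeq windows used here (GRCm38.p6), of 300 bases from 250 before to 50 after a gene start, covered 7 of the 10 members. These had 9 windows, of which Isg20 had 3, and the set held none for Usp18, Mx1 and Mx2. The ISRE core, searched as GAAANNGAAA on both strands, was present in full in the windows of Isg15, Rsad2 and Bst2 and in 3.44% of all 32851 windows of this length. Isg15 held 3 matches, which overlap each other and began 78, 72 and 66 bases before the gene start; Bst2 held 2 overlapping matches, at 130 and 124 bases, and Rsad2 held 1 on the other strand, at 120 bases. These stretches are shown because they carry the full matches, printed in capitals, 5′ to 3′ on the strand of the gene.
Isg15, chr4:156200850-156200921, minus strand: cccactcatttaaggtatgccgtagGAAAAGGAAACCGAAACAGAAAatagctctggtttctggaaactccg
Rsad2, chr12:26456538-26456597, minus strand: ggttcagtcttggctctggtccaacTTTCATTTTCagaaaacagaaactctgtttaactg
Bst2, chr8:71537562-71537627, minus strand: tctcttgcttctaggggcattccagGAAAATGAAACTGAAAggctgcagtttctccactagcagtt

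Windows of Uba7, Herc6 and Isg20 came within 1 mismatch of the ISRE core, which 35.4% of all windows did as well. In Uba7 this happened at 2 overlapping places, 27 and 21 bases before the RefSeq gene start, which lies downstream of the start that GENCODE gives, and once more just after it. The pair is shown for comparison with the run in Isg15, with the span of the near matches in capitals.
Uba7, chr9:107975533-107975562, plus strand: agtctagTTTCACTTTTGGTTTCctgaaat
The window of Ube2l6 came no closer than 3 mismatches. The gamma-activated sequence (GAS, searched as TTCNNNGAA, which reads the same on both strands) was present in full in the windows of Isg20 (its first window, 73 bases before the start) and Bst2 (136 bases before the start, sharing its last 3 letters with the first ISRE match), and in 8.30% of all windows. These are matches of letters in a short window and no binding was measured.

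**Figure D2:**
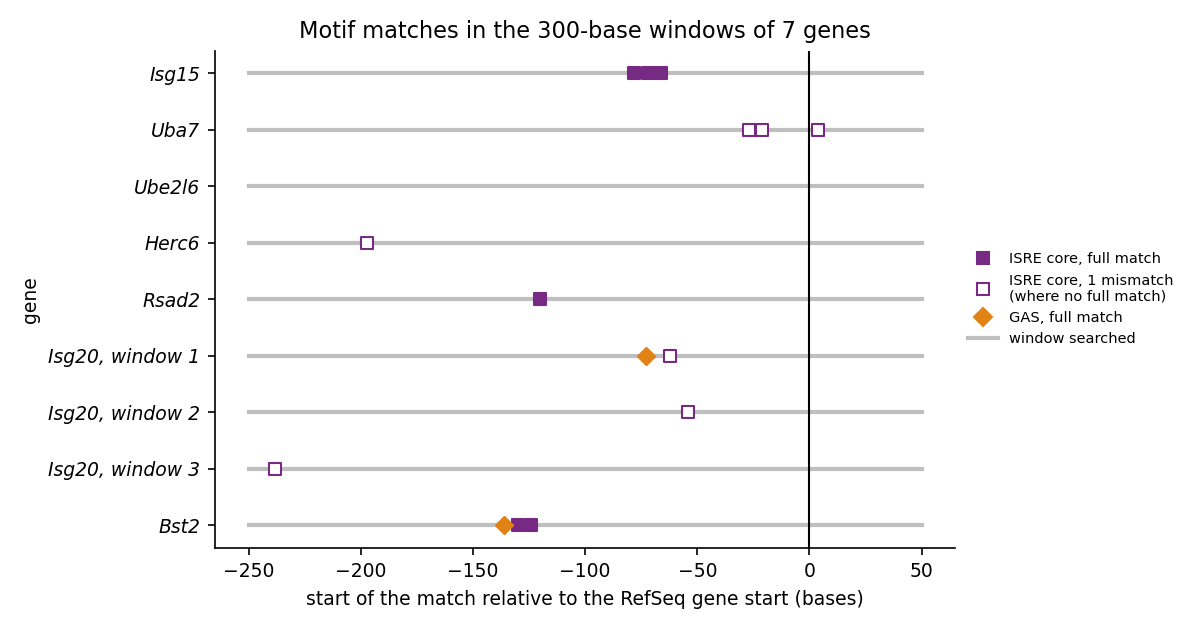
Start of each motif match relative to the gene start (bases) in the 9 windows of 7 effector genes; filled squares are full ISRE core matches, open squares the nearest matches with 1 mismatch, and diamonds full GAS matches. Filled squares are found for Isg15, Rsad2 and Bst2, between 130 and 66 bases before the start.

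The modifier itself, Isg15 (ENSMUSG00000035692, chr4:156199424-156200818, minus strand, GRCm38), was at 3.01, 4.12 and 3.55 CPM in control replicates 1, 2 and 3 and at 258, 321 and 460 CPM in LPS replicates 1, 2 and 3. Its LPS libraries were all far above its control libraries, and LPS replicate 3 was the highest. The mean went from 3.56 ± 0.554 to 346 ± 103 CPM (SD, n = 3), a log2 fold change of 6.60 with a standard error (SE) of 0.30 and an edgeR adjusted p of 0.00026. Among the 1384 genes called higher, Isg15 held rank 74 by fold change.

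The 3 enzymes that attach ISG15 were present at rest and had smaller fold changes than the modifier, a difference on which no test was made. Uba7, the E1 that activates ISG15 (ENSMUSG00000032596, chr9:107975505-107984060, plus strand), was at 12.5, 13.0 and 21.8 CPM in the control libraries and at 92.8, 107 and 207 CPM in the LPS libraries. Replicate 3 was the highest library of each group, and the groups were well apart. Its log2 fold change was 3.10 (SE 0.40, edgeR adjusted p = 0.0080), and without control replicate 2 the adjusted p was 0.0556, so that this call was lost. The gene model Gm20661 shared 3.48% of the exonic bases of Uba7 on the same strand and was not called (log2 fold change -0.21).

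Ube2l6, the E2 that accepts ISG15 from UBA7 (ENSMUSG00000027078, chr2:84798828-84810335, plus strand), was at 19.6, 17.0 and 22.8 CPM in the control libraries. The LPS libraries held 153, 161 and 203 CPM of it. It had the smallest SE of the members, with control libraries and LPS libraries each within a narrow range and a wide gap between them. The log2 fold change of Ube2l6 was 3.12 (SE 0.17, edgeR adjusted p = 0.00038). Herc6, the main ISG15 ligase of the mouse (ENSMUSG00000029798, chr6:57581000-57664632, plus strand), was at 6.19, 6.02 and 8.47 CPM in control and at 67.1, 78.8 and 107 CPM in LPS. Replicate 3 was again the highest of each group, with no overlap between groups. The log2 fold change of Herc6 was 3.61 (SE 0.24, edgeR adjusted p = 0.00088); 13.7% of its exonic bases were shared with the transcript model Gm45193 on the same strand, which held 0 counts in all 6 libraries.

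Usp18, the protease that removes ISG15 (ENSMUSG00000030107, chr6:121245906-121270917, plus strand), was at 1.78, 2.88 and 2.23 CPM in control and at 165, 187 and 281 CPM in LPS. As for Isg15, all control libraries were low and LPS replicate 3 was the highest. Its mean changed from 2.30 ± 0.552 to 211 ± 61.2 CPM (SD, n = 3), and its log2 fold change of 6.52 (SE 0.32, edgeR adjusted p = 0.00030) was close to that of Isg15. The antisense model Gm44148, which covered 4.44% of the exonic bases of Usp18, had 3 or 4 counts per library.

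Ratios of counts within a library, which do not depend on its size, set the members of the conjugation system against each other. For each Usp18 count there were 1.69, 1.43 and 1.59 Isg15 counts in control and 1.56, 1.71 and 1.64 in LPS. Modifier and protease thus kept a nearly constant ratio in all 6 libraries, with overlapping groups. The ratio of Isg15 to Uba7 counts was 0.241, 0.316 and 0.163 in control and 2.78, 2.99 and 2.23 in LPS, and that of Isg15 to Ube2l6 counts was 0.154, 0.242 and 0.156 in control and 1.68, 2 and 2.27 in LPS. Both ratios were higher in every LPS library than in any control library. Ube2l6 to Uba7 gave 1.57, 1.31 and 1.05 in control and 1.65, 1.50 and 0.982 in LPS, which overlapped, with replicate 3 the lowest of each group. For Herc6 to Uba7, the ratios of 0.495, 0.463 and 0.389 in control lay below the 0.723, 0.736 and 0.517 of LPS. These ratios are given as values, and no test was made on them.

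**Figure D3:**
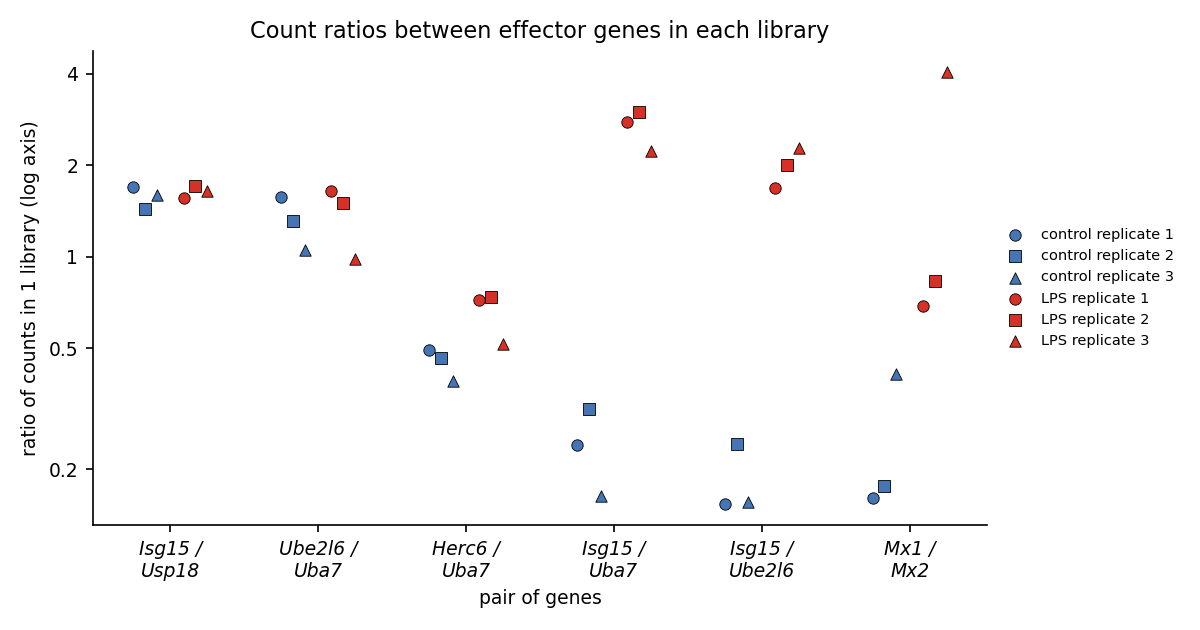
Ratio of the counts of 2 effector genes within the same library (log axis) for 6 pairs of genes, in the 3 control (blue) and 3 LPS (red) libraries. Isg15 to Usp18 stays between 1.43 and 1.71 in all libraries, whereas Isg15 to Uba7, Isg15 to Ube2l6 and Mx1 to Mx2 are higher in every LPS library than in the control libraries.

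The Mx genes encode GTPases that trap incoming viral ribonucleoproteins; C57BL/6 and many other inbred mice carry a defective Mx1 gene, and the GENCODE M21 annotation lists Mx2 as a polymorphic pseudogene, so transcripts here do not stand for active protein. Mx1 (ENSMUSG00000000386, chr16:97447035-97462907, minus strand) gave 5, 6 and 7 counts in the control libraries, or 0.212, 0.266 and 0.289 CPM. The LPS libraries gave 423, 476 and 3707 counts, or 20.9, 26.5 and 194 CPM. Mx1 was therefore near the detection floor at rest (3 counts, 0.124 to 0.167 CPM), and its LPS mean of 80.5 ± 98.4 CPM (SD, n = 3) was set by replicate 3. The log2 fold change was 8.27 with an SE of 1.31 and an edgeR adjusted p of 0.014. Without LPS replicate 3 it was 6.50 with an adjusted p of 0.00014; the call was lost without control replicate 1 (adjusted p = 0.072), without control replicate 2 (adjusted p = 0.081) and with limma-voom in place of edgeR (log2 fold change 7.43, adjusted p = 0.134).

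Mx2 (ENSMUSG00000023341, chr16:97535308-97560900, plus strand) was at 1.31, 1.51 and 0.703 CPM in control and at 30.3, 32.0 and 48.0 CPM in LPS. Here LPS replicates 1 and 2 were close to each other with LPS replicate 3 above them, and control replicate 3 was the lowest library. Its log2 fold change was 4.97 (SE 0.35, edgeR adjusted p = 0.0011). The ratio of Mx1 to Mx2 counts was 0.161, 0.176 and 0.412 in control and 0.689, 0.829 and 4.04 in LPS, and it was higher in every LPS library than in any control library. Per kilobase of exon, Mx1 was below its paralog in LPS replicate 1 (5.52 against 8.40 CPM per kilobase) and above it in LPS replicate 3 (51.3 against 13.3 CPM per kilobase). Of the 50-base words in the annotated transcripts of Mx1, 3.86% also occurred in another gene's transcripts, namely those of Mx2, so reads from these stretches could have come from either gene.

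Rsad2 (ENSMUSG00000020641, chr12:26442746-26456452, minus strand) was at 2.50, 2.79 and 1.74 CPM in control and at 144, 188 and 429 CPM in LPS. Replicate 3 was the lowest control library and the highest LPS library, and the groups did not overlap. The log2 fold change of Rsad2 was 6.76 (SE 0.56, edgeR adjusted p = 0.0019); without LPS replicate 3 it was 6.15 with an adjusted p of 2e-04, and without replicate 3 of both groups 5.99 with an adjusted p of 2.7e-06. Its divergent neighbour Cmpk2, which encodes a mitochondrial nucleotide kinase and starts 12752 bases away, was likewise highest in LPS replicate 3, with 2.29, 2.30 and 2.19 CPM in control and 77.2, 86.4 and 261 CPM in LPS (log2 fold change 5.96, SE 0.61, edgeR adjusted p = 0.0036).

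Isg20 (ENSMUSG00000039236, chr7:78913424-78920396, plus strand) was at 2.03, 1.73 and 1.74 CPM in control and at 15.3, 15.7 and 44.2 CPM in LPS. The control libraries were nearly equal and LPS replicate 3 was far above the other two LPS libraries. Its log2 fold change was 3.77 (SE 0.51, edgeR adjusted p = 0.0087); without control replicate 2 the adjusted p was 0.060 and the call was lost, whereas without LPS replicate 3 the log2 fold change was 3.07 with an adjusted p of 4e-04. Relatives of the exonuclease were measured beside it. Isg20l2 and Aen, the latter its neighbour on chromosome 7, were not called (log2 fold changes of 0.02 and -0.05), and Rexo4 was called higher with 0.36 (SE 0.09, edgeR adjusted p = 0.042).

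Bst2 (ENSMUSG00000046718, chr8:71534255-71537456, minus strand) was the member with the highest level at rest. It was at 35.7, 50.4 and 85.5 CPM in control and at 529, 531 and 767 CPM in LPS. Replicate 3 was the highest library of both groups, and the lowest LPS library was far above control replicate 3. The log2 fold change of Bst2 was 3.41 (SE 0.38, edgeR adjusted p = 0.0045). Plasmacytoid dendritic cells carry much tetherin, and 4 marker genes of these cells were read. Siglech and Klk1 had 0 counts in all 6 libraries, which allows up to 0.167 CPM. Ccr9 had 1 count in LPS replicate 2, 3 counts in LPS replicate 3 and 0 elsewhere. Irf8 alone passed the filter on low counts and was not called (log2 fold change -0.21). Among 4 B cell markers none passed the filter. The part of such cells in the level of Bst2 was not tested.

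**Figure D4:**
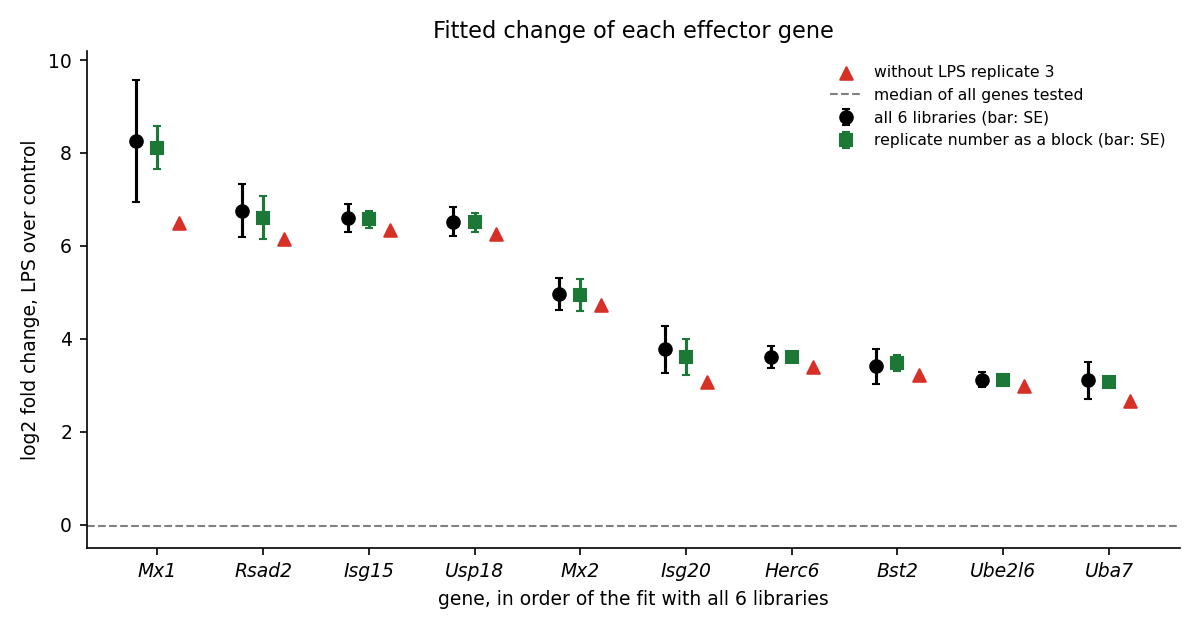
Log2 fold change of LPS over control for each effector gene in order of size, from all 6 libraries (black, bar: SE), with the replicate number as a block (green, bar: SE) and without LPS replicate 3 (red triangles); the dashed line is the median of all genes tested. All values exceed 2.66 except that of Uba7 without LPS replicate 3, which equals it, and Mx1 has the widest bar and the largest shift.

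Divided by the length of their exons, the members could be set in order of level, in CPM per kilobase. In control, Bst2 led with 63.3 ± 28.3 CPM per kilobase (SD, n = 3), the 95.8th percentile of the genes tested that had a length. It was followed by Ube2l6 with 9.92 ± 1.44, Isg15 with 4.71 ± 0.733 and Uba7 with 2.36 ± 0.779 CPM per kilobase (SD, n = 3), and these 4 differed from their neighbours in the order in every library. Isg20, Usp18 and Herc6, between 0.985 and 0.742 CPM per kilobase on average, overlapped from one to the next, as did Rsad2 and Mx2, and Mx1 was the lowest with 0.0675 ± 0.0105. After LPS, Bst2 with 674 ± 151 and Isg15 with 458 ± 137 CPM per kilobase (SD, n = 3) headed the order with overlapping ranges, at the 99.8th and 99.6th percentiles. Isg15 was clear of Ube2l6, which had 86.3 ± 13.3 CPM per kilobase. From Ube2l6 down through Usp18, Rsad2, Mx1, Uba7, Isg20, Mx2 and Herc6 (9.06 ± 2.19 CPM per kilobase), each gene overlapped the next. The place of Isg15 thus moved from the 49.0th to the 99.6th percentile, and that of Usp18 from the 17.5th to the 95.8th. Without LPS replicate 3, 6 of the 10 members kept their place in the LPS order, and without control replicate 2, 8 of 10 kept theirs in the control order; in CPM not divided by length 4 of 10 kept their place in either group.

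LPS replicate 3 stood apart for these genes. The CPM of all 10 members was higher there than the mean of LPS replicates 1 and 2, with ratios of 1.29 (Ube2l6) to 8.18 (Mx1) and a median of 1.59, while 50.3% of all genes tested had a ratio above 1, with a median of 1.00 and a range from the 5th to the 95th percentile of 0.388 to 2.44. Mx1, Isg20 (2.86) and Rsad2 (2.59) were above that range. LPS replicates 1 and 2 were close to each other, with ratios between 0.763 and 0.997. In control replicate 3 the members went both ways: 5 of 10 were above the mean of the other two control libraries, with ratios from 0.499 (Mx2) to 1.99 (Bst2). Leaving out LPS replicate 3 kept all 10 calls, with a median log2 fold change of 4.06, and leaving out replicate 3 of both groups, an alternative added after the data had been seen, gave 10 calls and a median of 4.07.

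**Figure D5:**
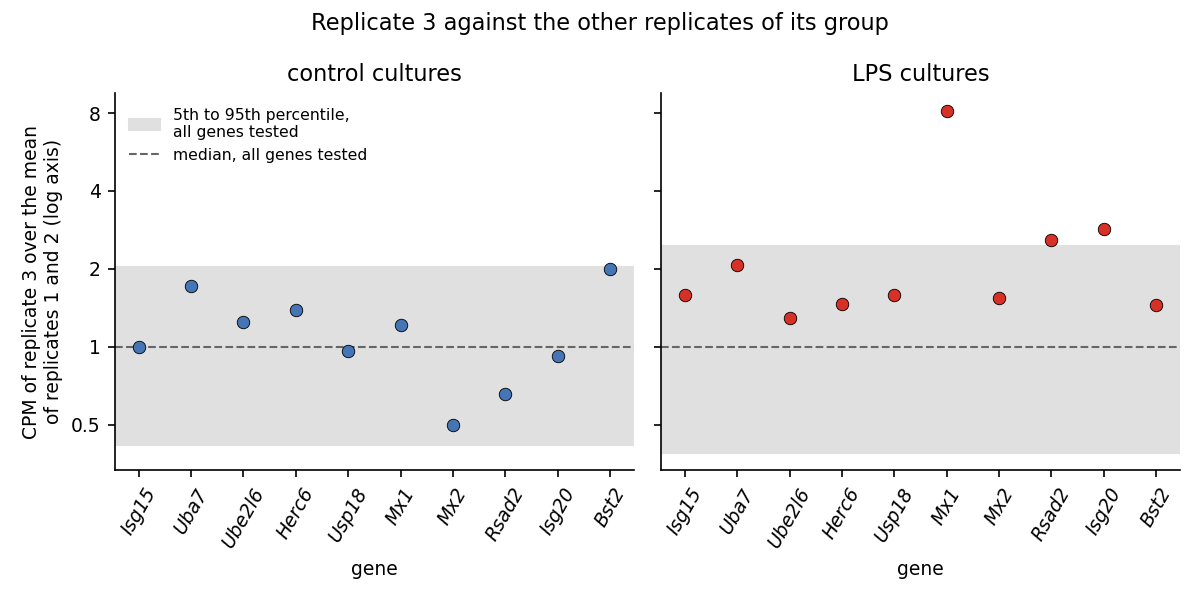
CPM of replicate 3 over the mean of replicates 1 and 2 of the same group (log axis) for each effector gene in control (left) and LPS (right); the grey band spans the 5th to 95th percentile of all genes tested and the dashed line is their median. In LPS all 10 genes are above 1 and Mx1, Isg20 and Rsad2 are above the band, whereas in control the genes lie on both sides of 1.

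Markers of other cell types were read beside this. Of 12 macrophage markers all passed the filter; edgeR called 1, Adgre1, higher and 0 lower, and with the replicate number as a block 5 higher (Adgre1, Aif1, Fcer1g, Fcgr1 and Ptprc) and 4 lower (Cd68, Cx3cr1, Mrc1 and Tyrobp). Their summed level, most of it Lyz2, was 3954, 5078 and 11780 CPM in control replicates 1, 2 and 3 and 4101, 5346 and 19580 CPM in LPS replicates 1, 2 and 3. Replicate 3 was thus the highest of both groups for this sum, as it was for the summed CPM of the effector genes. Taken singly, the effector genes were all highest in LPS replicate 3 but went both ways in control replicate 3. Within the list, Adgre1, the F4/80 antigen, was at 159, 229 and 472 CPM in control and at 952, 1261 and 3700 CPM in LPS, with every LPS library above the control libraries. Mrc1, the mannose receptor, was at 197, 331 and 752 CPM in control and at 9.29, 10.4 and 131 CPM in LPS, with every LPS library below them. All 5 smooth muscle markers were called lower (median log2 fold change -1.86), with sums of 2357, 2369 and 2119 CPM in control and 849, 832 and 592 CPM in LPS. Of 7 glial markers, whose sums were between 264 and 377 CPM, S100b was called lower (-1.91), Fabp7 higher (1.30, rising from 2.55 ± 0.256 to 6.27 ± 1.05 CPM; SD, n = 3) and the other 5 were not called. Sums of 6 mesenchymal markers were between 14780 and 15720 CPM, with 2 called higher (Dcn and Pdgfra) and 0 lower, those of 5 neuronal markers between 237 and 393 CPM, and those of 4 endothelial markers between 8.06 and 20.7 CPM, with 0 called. The part that macrophages, or any other cell of the cultures, had in the levels of the effector genes was not tested.

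Other antiviral genes of the interferon response were compared from a list of 30, all of which passed the filter. The edgeR test called 27 higher and 0 lower, with a median log2 fold change of 4.06. The largest changes were those of Zbp1, a sensor of Z-form nucleic acid (log2 fold change 8.44, SE 0.35), the oligoadenylate synthetase Oas3 (7.30, SE 0.89), Ifit1, which binds viral RNA lacking a host cap (6.96, SE 0.19), and Oasl1 (6.86, SE 0.65). The smallest among those called were Zc3hav1 (1.20, SE 0.12), the antiviral zinc finger protein, and Ifitm2 (1.27, SE 0.15), which acts on virus entry. Samhd1 (log2 fold change 1.78, edgeR adjusted p = 0.095) and Ifi27 (-0.68, edgeR adjusted p = 0.094) were not called, nor was Ifit1bl1, named after its values had been seen (4.99, edgeR adjusted p = 0.052), whose CPM was 7.61, 5.80 and 90.7 in LPS replicates 1, 2 and 3. With the replicate number as a block, 29 were called higher and Ifi27 lower.

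Of 17 genes of interferon signalling, 16 passed the filter and edgeR called 11 higher and 0 lower (median log2 fold change 1.53); with the replicate number as a block 13 were called higher, among them Tyk2 and Ifnar1 in addition. Irf7, the transcription factor that amplifies interferon production, went from 4.56 ± 0.551 to 638 ± 274 CPM (SD, n = 3), a log2 fold change of 7.13. Socs1, a feedback inhibitor like USP18, had a log2 fold change of 3.09 (SE 0.15), and Stat2, a transcription factor of the pathway, had 2.98 (SE 0.24). At the other end of the list, Jak1 was called with 0.34 (edgeR adjusted p = 0.048), and Ifngr1 (0.16), Irf3 (-0.03) and Irf8 (-0.21) were not called. The interferon gene Ifnb1 itself had 0 counts in all control libraries and in LPS replicates 1 and 2, and 17 counts in LPS replicate 3; it did not pass the filter.

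The enzymes of ubiquitin and of other ubiquitin-like modifiers formed the contrast to the ISG15 cascade. Of 29 such genes that passed the filter, edgeR called 5 higher and 0 lower, and the median log2 fold change was 0.06. The largest change was that of Trim25, a ligase linked to both ubiquitin and ISG15, which went from 78.5 ± 13.2 to 216 ± 30.5 CPM (SD, n = 3), with a log2 fold change of 1.46 (SE 0.16, edgeR adjusted p = 0.0045). Ubb, a ubiquitin precursor, was called with 0.56, and the others called, named after their values had been seen, included Uba1 and Ube2m, with log2 fold changes of 0.40 and 0.38. Usp13 (0.49) was not called, and neither were the 4 genes with the smallest values, Usp2 (-1.17), Herc1 (-0.27), Herc2 (-0.25) and Sae1 (-0.23). With the replicate number as a block 7 were called higher and Usp2 lower. The count of 5 depended on the scaling, with 3 called higher and 2 lower under upper-quartile factors and 2 higher and 3 lower with library size alone. Ube2l3, a close relative of Ube2l6, had 154 ± 13.7 CPM at rest and 153 ± 15.4 CPM after LPS (SD, n = 3) and was not called (log2 fold change -0.02, edgeR adjusted p = 0.94); the fitted changes of all 3 attaching enzymes of ISG15 were larger than any in this list. Likewise, none of 7 genes of the dynamin superfamily, to which Mx1 and Mx2 belong, was called, with log2 fold changes from -0.995 (Dnm3) to 0.12 (Dnm2); with the replicate number as a block, Dnm1 was called lower.

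The genes lying next to the members were mixed in their response. Of the nearest protein-coding genes on each side, those of Isg15 were both called higher, Agrn with a log2 fold change of 1.77 and AW011738 with 2.57, and so were Serping1 beside Ube2l6 (2.27), Slc6a13 beside Usp18 (4.73, from a mean of 0.115 to 3.19 CPM), Cmpk2 beside Rsad2 and Mvb12a beside Bst2 (0.45). Bace2 beside Mx1 was called lower (-0.70). Not called were Traip and Inka1, listed in the files as Fam212a, beside Uba7 (-0.43 and 0.63), Ppm1k and Pyurf beside Herc6 (0.01 and -0.48), Tuba8 beside Usp18 (1.10), Rnf144a beside Rsad2 (-0.32) and Aen beside Isg20; with the replicate number as a block, Tuba8 was called higher and Pyurf lower. Fam3b, which lies between Mx1 and Mx2, together with Tmprss2, Smtnl1 and Acan, did not pass the filter, and Ccdc194 beside Bst2 was not analysed here.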

How the data were processed

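Raw counts per gene were used as the authors deposited them, in whole numbers. Per the labels, poly(A) RNA was prepared with a stranded TruSeq kit, and the submitters' processing notes name cutadapt 1.15, Bowtie2 2.3.3.1, STAR 2.5.2b, SAMtools 1.5, featureCounts 1.5.3 and the build GRCm38. The strand setting of the counting and the handling of multi-mapping reads were not given in the sources used here. Totals were 18775316 to 23664312 counts per library, with 20297 to 20792 genes having a count. The table of the whole series held the same values as the files of single libraries.

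Groups and replicate numbers came from the sample titles. Genes were filtered with filterByExpr (minimum count 10, minimum total 15), which left 15226, and LPS was compared with control in edgeR 4.0.16 (R 4.3.3) with TMM factors, glmQLFit and glmQLFTest, two-sided, with group alone in the model and p-values adjusted by Benjamini-Hochberg over every gene tested. SE is the absolute log2 fold change over the square root of F. CPM are counts per 1000000 on TMM-corrected library sizes. Floors of 3 counts cover counting error only, since PCR copies cannot be told from separate molecules. Same-numbered control and LPS libraries deviated together from their group means (r across genes of 0.511, 0.336 and 0.612 for numbers 1, 2 and 3). Genes are not independent, and r between libraries of different numbers is not given here, so these values cannot show pairing. The labels state no link between same-numbered libraries. Unless the replicate block is named, SE, adjusted p-values and calls are from the fit without pairs. The test was checked on simulated counts.

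Alternatives were relative log expression, upper-quartile or no factors, no filter or 10 counts in every library, DESeq2 1.42.0, limma-voom (limma 3.58.1), the replicate block, the series table, and each library left out. The members and gene lists were chosen with earlier results of these data known. Named were all members, the 4 largest and 4 smallest fold changes of each list, the nearest protein-coding neighbours and the 5 genes nearest in profile; a few others are marked as named later, and some genes that entered the counts are not reported here by name. Positions and exon lengths are from GENCODE M21, in which 46005 identifiers (98.7%) were found, and 15176 tested genes had a length. Promoter sequences are from RefSeq (GRCm38.p6).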

Additional observations from a re-analysis of the deposited data

How the results depend on the processing

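Over 16 alternatives the log2 fold changes of the 10 effector genes gave 158 values, all positive and none under 2.66; 153 stayed called, and the 5 that were lost are those of Mx1 without control replicate 1, without control replicate 2 and in limma-voom, and of Uba7 and Isg20 without control replicate 2. DESeq2 gave no adjusted p for Mx1, and the filter of 10 counts in every library removed it, which lowered the median of the members to 3.77. With each library left out in turn, 7 to 10 members were called and their median was 4.06 to 4.56. The replicate block changed no call of a member. The series table, counted among the 16 alternatives, holds the same counts as the main fit and could not differ from it.

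The counts over all genes moved more. With each library left out, 379 to 1964 genes were called higher and 112 to 1426 lower, the lowest without control replicate 2 (470 and 194 without control replicate 1, 523 and 162 without LPS replicate 2, 619 and 224 without LPS replicate 1), and 1 to 7 genes of the ubiquitin list were higher and 0 to 1 lower. The replicate block gave 2343 higher and 2273 lower, with 1 lower in the list of other effectors and 1 in the ubiquitin list. DESeq2 gave 2079 higher and 1673 lower, 8 ubiquitin genes higher and 1 lower, and 1 other effector lower. Without replicate 3 of both groups there were 3498 higher and 3159 lower, 10 ubiquitin genes higher and 3 lower, and 1 gene lower in each of the other 2 lists. Upper-quartile factors gave 1589 genes lower, with 3 ubiquitin genes higher and 2 lower, and library size alone 2054 lower, with 2 higher and 3 lower; these scalings shifted the median of all genes to -0.12 and -0.18 and the higher share of calls from 57.5% to 39.8% and 32.4%. Without a filter 2 ubiquitin genes were higher. The cause was not tested. Leaving out libraries lowered the counts over all genes in some fits and raised them in others.

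With 3 libraries a group and Mx1 at 5 to 7 counts in control, the size of its change is imprecise.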

Other observations

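The 5 genes other than the members whose profile over the 6 libraries lay nearest to the mean profile of the effector genes were Gm14275, Oasl2, Olfr56, Gbp7 and Ddx60. Distance was the root mean square difference of centred log2 CPM, with 2 counts added, and was 0.193, 0.262, 0.292, 0.302 and 0.303 for these genes, against 0.376 (Mx2) to 1.33 (Mx1) for the members themselves. Gm14275, annotated as a lincRNA on chromosome 2, had 0 counts in all control libraries and 48, 42 and 73 counts in LPS replicates 1, 2 and 3, so its place in this order rests on the counts added. Oasl2, which is also on the list of other effectors, was at 411 ± 69.3 CPM in LPS and 11.7 ± 0.731 CPM in control (SD, n = 3), the most abundant of the 5. Gbp7, a guanylate-binding protein that shares 11.3% of its exonic bases with the model Gm43802 on the same strand, was at 5.78 ± 0.405 and 129 ± 25.6 CPM, and Ddx60, a helicase, at 2.26 ± 0.742 and 56.9 ± 33.7 CPM in control and LPS (SD, n = 3). Olfr56, an olfactory receptor model that shares 2.4% of its exonic bases with Ifi47 on the same strand, was at 0.684 ± 0.0926 and 19.1 ± 11.2 CPM (SD, n = 3). No explanation for these profiles was tested.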
